A study of Homo sapiens with 6 samples.

Results

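A set of 10 genes whose products remove hydrogen peroxide was followed in MV4-11, a human acute myeloid leukemia (AML) cell line that carries *FLT3*-ITD. They are the peroxiredoxins *PRDX1*, *PRDX2*, *PRDX3*, *PRDX4*, *PRDX5* and *PRDX6*, thioredoxin (*TXN*), thioredoxin reductase 1 (*TXNRD1*), glutathione peroxidase 1 (*GPX1*) and catalase (*CAT*). They were chosen by symbol as a functional set, all 10 were found among the 61806 counted genes, and all 10 passed the filter on low counts. RNA was sequenced from 3 libraries of cells with a control shRNA (shNC) and 3 libraries whose label, shATGL, names a knockdown of *ATGL*, the lipase that releases fatty acids from stored triacylglycerol. Both groups are the same line transduced with lentiviral vectors and selected with puromycin, and the labels give no shRNA sequence. The paper's supplement prints shRNA sequences against *ATGL* but does not say which of them these libraries carried. The design asks which transcripts differ between cells with these labels, and no lower level of the *ATGL* transcript was found in the libraries labelled shATGL. No source says that the 3 libraries of a group came from separate cultures, so p-values measure the spread between these libraries, which may be technical.

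Hydrogen peroxide is a by-product of respiration, of protein folding in the endoplasmic reticulum and of NADPH oxidases, which phagocytes and their precursors use. Peroxiredoxins reduce it with a reactive cysteine, and most of them are then recycled by thioredoxin, which thioredoxin reductase recharges with electrons from NADPH. Glutathione peroxidase 1 draws on glutathione instead, and catalase, mostly in peroxisomes, splits hydrogen peroxide into water and oxygen without a reductant.

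The catalytic codon tells enzymes with a reactive cysteine from those with selenocysteine, and it is shown here for 9 of the 10 genes. The coding sequences come from GENCODE 29 transcripts on GRCh38 and run 5′ to 3′, with the catalytic codon in capitals, and coordinates give the strand and the outer bases of each stretch.
*PRDX1* (ENSG00000117450, chr1:45515746-45515775, minus strand): gacttcacctttgtgTGCcccacggagatc
*PRDX2* (ENSG00000167815, chr19:12801008-12801037, minus strand): gacttcacttttgtgTGCcccaccgagatc
*PRDX3* (ENSG00000165672, chr10:119173848-119174455, minus strand, across an exon junction): gatttcacctttgtgTGTcctacagaaatt
*PRDX4* (ENSG00000123131, chrX:23671642-23675014, plus strand, across an exon junction): gatttcacatttgtgTGTccaactgaaatt
*PRDX5* (ENSG00000126432, chr11:64319845-64320666, plus strand, across an exon junction): gccttcacccctggaTGTtccaagacacac
*PRDX6* (ENSG00000117592, chr1:173481354-173481383, plus strand): gactttaccccagtgTGCaccacagagctt
*TXN* (ENSG00000136810, chr9:110251379-110251408, minus strand): ttctcagccacgtggTGTgggccttgcaaa
*TXNRD1* (ENSG00000198431, chr12:104348398-104348421, plus strand): ctccaggctggctgcTGAggttaa
*GPX1* (ENSG00000233276, chr3:49358120-49358149, minus strand): aatgtggcgtccctcTGAggcaccacggtc
In the 6 peroxiredoxins the capitals mark the cysteine codon that attacks the peroxide, and in *TXN* they mark the first cysteine of its redox pair. In *TXNRD1* and *GPX1* the capitals mark an in-frame TGA, which these selenoproteins read as selenocysteine. In *TXNRD1* this codon is the last but one before the stop codon. *CAT* (ENSG00000121691, chr11:34438925-34472062, plus strand) encodes a heme enzyme and has no such codon.

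The targeted gene was examined first. *ATGL* is listed as *PNPLA2* and averaged 102 ± 5.10 in shNC and 101 ± 2.96 in the libraries labelled shATGL, in CPM, the count scaled to the TMM-normalized library size (SD, n = 3 each). It therefore was not lower in those libraries, and the direction of every difference given here is one between labels. All 8 markers fixed for MV4-11 and myeloid cells were above 1 CPM in every library, and 13 of 14 markers of other cell types were below 1 CPM in every library, 8 of them at 0 throughout. Total counts went from 59674064 to 74808280. The library labelled shATGL 3 stood apart from shATGL 1 and shATGL 2, with a chi-square per degree of freedom over genes of 84.0 and 87.6 against them, compared with 12.3 between shATGL 1 and shATGL 2 and 11.3 to 26.2 among the shNC libraries.

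All 10 genes had a lower mean in the libraries labelled shATGL, by small amounts. The fitted levels ran from 79.4% of shNC for *PRDX5* to 91.7% for *TXNRD1*, and the median log2 fold change was −0.20 against 0.01 for all 19149 genes tested. With the study's thresholds, an adjusted p-value under 0.05 together with at least a 2-fold difference, 0 of the 10 were called differentially expressed, as were 0.00522% of all genes tested. Of the 10, 5 had an unadjusted p-value under 0.05, all of them lower, where 5.94% of genes tested were lower with such a p-value and 11.7% had one in either direction. A log2 fold change below 0 was found for 48.1% of all genes tested. In 6 of the 10, every library labelled shATGL lay below every shNC library, as 9.38% of genes tested did. In the shortest decile of coding genes by transcript length, described below, 38.7% were lower with an unadjusted p-value under 0.05. In 38.9% of that decile, shATGL lay below shNC without overlap. With 3 libraries against 3, the exact two-sided permutation test applied to 1 gene has 0.1 as its smallest p-value. The adjusted p-values of the 10, from edgeR's quasi-likelihood test with Benjamini-Hochberg adjustment over all genes tested, went from 0.392 to 0.535.

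**Figure D1:**
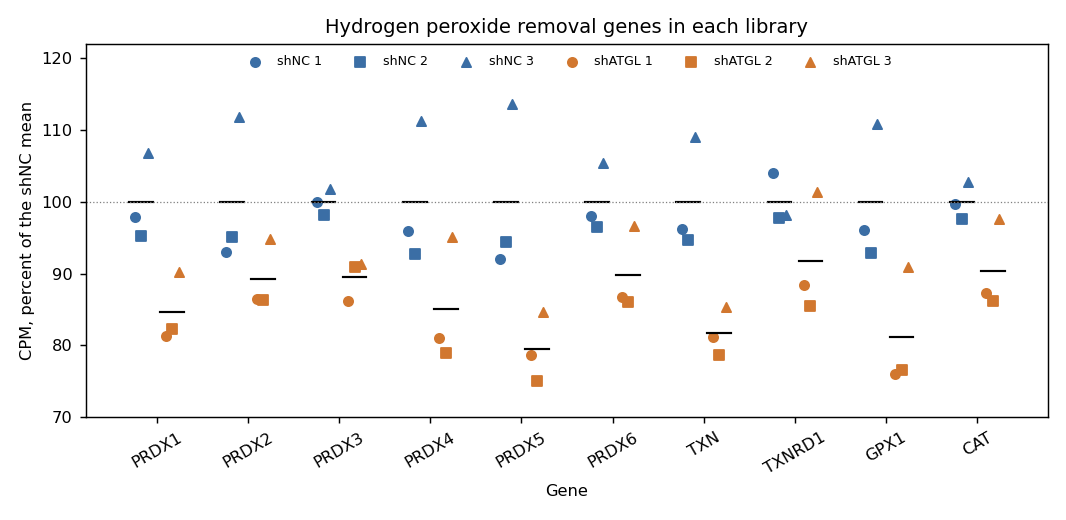
Level of each gene in each library as a percentage of its shNC mean in CPM, with shNC in blue, the libraries labelled shATGL in orange, symbols for replicate numbers and black bars for group means. The mean of the libraries labelled shATGL lies below 100% for all 10 genes, and the orange triangle of shATGL 3 is the highest of its group for every gene.

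Among the cytosolic peroxiredoxins, *PRDX1* is the abundant housekeeping form. It measured 417, 406 and 455 CPM in shNC 1, 2 and 3, compared with 347, 350 and 384 in the libraries labelled shATGL 1, 2 and 3, so the groups did not overlap. Its log2 fold change was −0.24 (standard error, SE, 0.07, 95% confidence interval, CI, −0.40 to −0.08, adjusted p = 0.392 from edgeR, exact permutation p = 0.1). *PRDX2*, best known from red blood cells, measured 123, 126 and 148 CPM in shNC, compared with 114.5, 114.3 and 125.5 in the libraries labelled shATGL. Here shATGL 3 stood above shNC 1, and the confidence interval of the log2 fold change of −0.17 included 0 (−0.37 to 0.04). Without shNC 3, the log2 fold change of *PRDX2* was −0.08. *PRDX6*, which has a single reactive cysteine and relies on glutathione, measured 309, 304 and 332 CPM in shNC, compared with 273, 271 and 304 in the libraries labelled shATGL. The groups of *PRDX6* overlapped by less than 1 CPM, and its log2 fold change was −0.16 (95% CI −0.31 to 0.0040, adjusted p = 0.431 from edgeR).

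The mitochondrial pair differed in abundance. *PRDX3*, the peroxiredoxin of the mitochondrial matrix, measured 420, 413 and 428 CPM in shNC, compared with 363, 383 and 384 in the libraries labelled shATGL. Its groups did not overlap, and with SDs of 7.52 CPM in shNC and 12 CPM in the other group it had the smallest SE of the 10 (log2 fold change −0.16, SE 0.05, 95% CI −0.28 to −0.04, adjusted p = 0.392 from edgeR). *PRDX5*, found in mitochondria, peroxisomes and cytosol, measured 55.0, 56.5 and 68.0 CPM in shNC, compared with 47.1, 44.9 and 50.6 in the libraries labelled shATGL. It had the largest difference of the 10, a log2 fold change of −0.33 (SE 0.10, 95% CI −0.56 to −0.10, adjusted p = 0.392 from edgeR). Its groups did not overlap, and shNC 3 was well above the other shNC libraries. *PRDX4*, the peroxiredoxin of the endoplasmic reticulum, measured 63.6, 61.5 and 73.7 CPM in shNC, compared with 53.7, 52.3 and 63.1 in the libraries labelled shATGL. The library labelled shATGL 3 lay within the shNC range of *PRDX4* (log2 fold change −0.23, SE 0.10, adjusted p = 0.431 from edgeR). Without shNC 3, the log2 fold change of *PRDX4* was −0.15.

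Thioredoxin and its reductase recharge most peroxiredoxins. *TXN* measured 167.5, 165 and 190 CPM in shNC, compared with 141, 137 and 149 in the libraries labelled shATGL. It had the smallest unadjusted p-value of the 10 (log2 fold change −0.29, SE 0.07, 95% CI −0.46 to −0.12, unadjusted p = 0.00460 and adjusted p = 0.392 from edgeR), and its groups did not overlap. *TXNRD1* measured 229, 215 and 216 CPM in shNC, compared with 195, 188 and 223 in the libraries labelled shATGL. The library labelled shATGL 3 was above 2 of the 3 shNC libraries of *TXNRD1*, whose log2 fold change of −0.12 was the smallest of the 10 (SE 0.08, 95% CI −0.30 to 0.05, adjusted p = 0.535 from edgeR). It was −0.08 without shATGL 2 and −0.20 without shATGL 3. Per transcript length, *TXN* was 3.58 ± 0.347 times as abundant as *TXNRD1* in shNC (SD, n = 3) and 3.19 ± 0.157 times in the libraries labelled shATGL (SD, n = 3).

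*GPX1* measured 988, 955 and 1140 CPM in shNC, compared with 781, 788 and 934 in the libraries labelled shATGL, so its groups did not overlap. Its log2 fold change was −0.30 (SE 0.10, 95% CI −0.52 to −0.08, adjusted p = 0.392 from edgeR). *CAT* measured 604, 592.2 and 623 CPM in shNC, compared with 529, 523 and 592.2 in the libraries labelled shATGL, where shATGL 3 lay 0.062 CPM below shNC 2. The log2 fold change of *CAT* was −0.15 (SE 0.06, 95% CI −0.30 to 0.0033, adjusted p = 0.431 from edgeR). The 10 genes were covered by 3041 to 80855 counts per gene and library, so counting error was small beside the spread between libraries. The lower ends of the 95% confidence intervals went from 67.7% of shNC (*PRDX5*) to 82.3% (*PRDX3*), so a 2-fold fall lay outside all 10 intervals. In bulk RNA, fewer cells with a transcript and less of it per cell cannot be told apart.

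The levels of the 10 genes varied together from library to library. Across their 45 pairs, Pearson's r of log2 CPM over the 6 libraries had a median of 0.932 and a range of 0.558 to 0.994. These points share library, depth and normalization, and the coefficients are a description. Summed over the 10 genes, the level was 3377, 3294 and 3675 CPM in shNC 1, 2 and 3, compared with 2844, 2850 and 3210 in the libraries labelled shATGL 1, 2 and 3. The nearest genes outside the set, by the same coefficient among 9287 genes with a mean of at least 10 CPM, were *LYZ* for *PRDX1*, *GPAA1* for *PRDX2*, *CYB561D2* for *PRDX3*, *CDIPT* for *PRDX4*, *MRPL21* for *PRDX5*, *RPS4Y1* for *PRDX6*, *EDF1* for *TXN*, *IRF8* for *TXNRD1*, *RPL30* for *GPX1* and *SCPEP1* for *CAT*. These coefficients went from 0.991 to 0.9996. Between 98 and 979 genes had an r above 0.95 with a given member, so the pattern was shared with many genes.

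Per transcript length, *GPX1* was the most abundant of the 10 by a wide margin. Levels are given as CPM per kb of the principal transcript, which for these genes was 869 to 3930 bases long. *GPX1* was at 893 ± 85.8 CPM per kb in shNC (SD, n = 3), above 99.6% of the genes tested that had an annotated length. *PRDX1* followed at 345 ± 21.0, then *PRDX3* at 264 ± 4.73 and *CAT* at 264 ± 6.77 CPM per kb (SD, n = 3 each), and the last 2 could not be ordered beyond their spread. *TXN* was at 200 ± 15.8, *PRDX6* at 180 ± 8.62 and *PRDX2* at 134 ± 13.7 CPM per kb in shNC (SD, n = 3 each). *PRDX5* at 67.0 ± 7.94 and *PRDX4* at 66.0 ± 6.50 CPM per kb did not differ beyond their spread on this length, and *TXNRD1* was lowest at 56.1 ± 1.99 CPM per kb (SD, n = 3 each), still above 92.4% of genes. In the libraries labelled shATGL the first 2 places were the same, while the ranges of *TXN* and *PRDX6* overlapped, as did those of *PRDX4*, *PRDX5* and *TXNRD1*. These levels depend on the length chosen. Per kb of all annotated exons of a gene, *PRDX5* stayed at 67.0 in shNC while *PRDX4* was at 34.8, so the pair was then apart. On that length *PRDX3* was at 123, *CAT* at 169, *PRDX2* at 63.3 and *TXNRD1* at 32.9 CPM per kb in shNC.

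**Figure D2:**
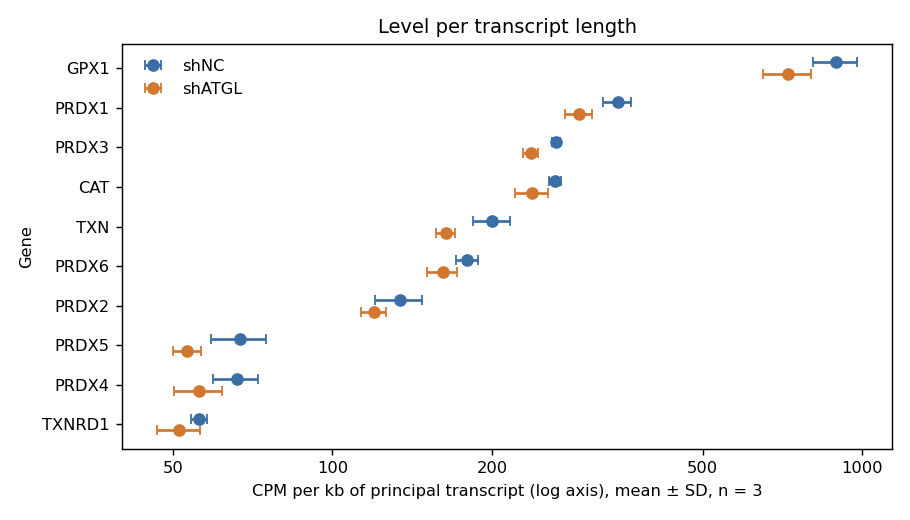
Level of each gene as CPM per kb of principal transcript on a log axis, as the mean ± SD of 3 libraries, with shNC in blue and the libraries labelled shATGL in orange. *GPX1* is highest, at 893 in shNC and 725 in the libraries labelled shATGL, and *TXNRD1* is lowest, at 56.1 and 51.5.

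The makeup of the peroxiredoxin family was almost the same in the 2 groups. Of the summed CPM per kb of *PRDX1* to *PRDX6*, *PRDX1* took 32.4% to 32.9% in the shNC libraries and 31.7% to 32.0% in those labelled shATGL. *PRDX3* took 23.9% to 25.7% and 24.8% to 26.8%, and *PRDX5* took 5.995% to 6.75% and 5.61% to 5.94%. *PRDX6* took 16.8% to 17.1% in shNC and 17.2% to 17.9% in the libraries labelled shATGL. The ranges of *PRDX1* and *PRDX5* were lower in the libraries labelled shATGL and that of *PRDX6* higher, without overlap. The nearest libraries were under 1 percentage point apart, for *PRDX5* at 5.995% and 5.94%. The ranges of *PRDX2*, *PRDX3* and *PRDX4* overlapped. *PRDX5* has the shortest principal transcript of the family (893 bases) and *PRDX6* the longest (1751 bases). The part of transcript length in these shares was not tested. The cytosolic forms *PRDX1*, *PRDX2* and *PRDX6* together took 62.1% to 62.9% in shNC and 61.8% to 62.9% in the libraries labelled shATGL. With the length of all annotated exons the shares were others, 39.7% to 40.2% for *PRDX1*, 16.7% to 18.1% for *PRDX3* and 9.05% to 10.2% for *PRDX5* in shNC, while the ranges that did not overlap between groups were again those of *PRDX1*, *PRDX5* and *PRDX6*.

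Transcript length moved with these differences. Across the 18566 tested genes with an annotated length, the log2 fold change rose with the length of the principal transcript (Spearman's rho 0.222 across genes, which are not independent replicates). Among the 10372 protein-coding genes with a mean of at least 4 CPM, a group set after the data were seen, rho was 0.507. All but 1 of the 10 genes have principal transcripts of 869 to 2302 bases, and that of *TXNRD1* has 3930. Within the 10, rho between log2 fold change and length was 0.830, a description of 10 genes.

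Set beside coding genes of like length, the differences were smaller for all of the 10 but *TXNRD1*. The coding genes were split by length into 10 deciles. In the shortest decile (207 to 1354 bases, 1038 genes) the median log2 fold change was −0.20, 87.9% were lower in the libraries labelled shATGL, and in 38.9% the groups did not overlap with shATGL lower. *PRDX1*, *PRDX2*, *PRDX4*, *PRDX5*, *TXN* and *GPX1* belong to this decile by their length. Measured from its median on the log2 scale, *PRDX1* and *PRDX4* lay at −0.04 each and *PRDX2* at 0.03, and all of them were within its quartiles (−0.26 to −0.10). *PRDX5*, *TXN* and *GPX1* lay further down, at −0.13, −0.09 and −0.10 from the median and under the lower quartile. *PRDX3* and *PRDX6*, in the second decile, were both at −0.04 from its median of −0.12 and inside its quartiles. *CAT* was at −0.09 from the median of its decile (−0.06), and *TXNRD1* had the largest distance of the 10, −0.14 from a median of 0.02, both under the lower quartile. Against all genes tested in the same decile of length, all 10 were below the median and 6 were below the lower quartile.

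After the dependence on transcript length and GC content was removed library by library, all 10 genes were still lower, with log2 fold changes of −0.06 (*PRDX2*) to −0.23 (*PRDX5* and *GPX1*) and a median of −0.15. In that fit *PRDX1* was at −0.12, *PRDX4* at −0.10 and *TXN* at −0.22. *TXNRD1* went from −0.12 to −0.19 and *PRDX3* from −0.16 to −0.17. The adjusted p-values from edgeR were 0.343 to 0.615. The correction left a rho of 0.092 with principal transcript length among the coding genes, and of 0.215 with the length of all annotated exons. In that fit the median log2 fold change was still below 0 in every decile of coding genes, and −0.10 in the shortest. Of the 10, *PRDX2* lay above the median of its decile, *PRDX4* at it and *PRDX1* slightly below it. The other genes lay further below theirs.

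**Figure D3:**
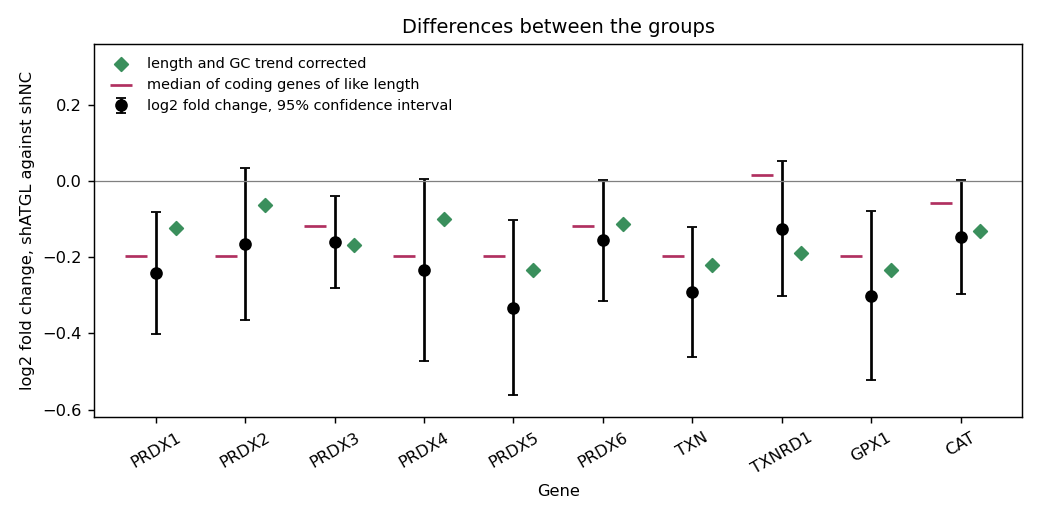
Log2 fold change of each gene with its 95% confidence interval (black), the median of coding genes in the same decile of transcript length (red bar) and the log2 fold change with length and GC trends removed (green). The intervals of *PRDX1*, *PRDX3*, *PRDX5*, *TXN* and *GPX1* lie below 0, and the red bars are near −0.20 for the short transcripts and at 0.02 for *TXNRD1*.

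The length trend and the level of the 10 genes moved together over single libraries. Among the coding genes, the rho between a library's deviation from the mean of all 6 and transcript length was −0.262, −0.100 and −0.551 in shNC 1, 2 and 3, and 0.381, 0.417 and −0.048 in the libraries labelled shATGL 1, 2 and 3. The median deviation of the 10 genes on the log2 scale was 0.07, 0.04 and 0.23 in shNC 1, 2 and 3, and −0.14, −0.16 and 0.01 in the libraries labelled shATGL 1, 2 and 3. For 2071 short coding genes outside the set, of up to 1839 bases, it was 0.05, 0.03 and 0.16 in shNC and −0.11, −0.12 and 0.01 in the libraries labelled shATGL. The order of the libraries was the same in both series, with shNC 3 highest and shATGL 2 lowest. The share of counts on ribosomal protein genes, which have short transcripts, was 6.15% to 6.85% in shNC and 5.41% to 5.95% in the libraries labelled shATGL. The part of the length trend in the differences of single genes was not tested beyond the corrected fit.

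For 9 of the 10 genes, the side of the adjusted threshold depended on the library labelled shATGL 3. Without it, 9 of the 10 had an adjusted p-value under 0.05 from edgeR, all lower, where 6.07% of all genes tested in that fit were lower with such a value. The exception was *PRDX2*. In the shortest decile of the coding genes that share was 35.7%. It was 20.5% in the decile of *PRDX3* and *PRDX6*, 11.25% in that of *CAT* and 5.51% in that of *TXNRD1*. In this fit the log2 fold changes were −0.39 for *GPX1*, −0.38 for *PRDX5* and −0.33 for *TXN*, and −0.20 for *TXNRD1*. With all 6 libraries and limma voom with sample quality weights, 9 of the 10 also had an adjusted p-value under 0.05. These weights count a variable library less. With voom, 7.56% of genes tested and 41.3% of the shortest decile of coding genes were lower with such a value. The share was 23.4% in the decile of *PRDX3* and *PRDX6*, 13.65% in that of *CAT* and 6.96% in that of *TXNRD1*. No member reached a fold change of 2 in either fit.

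Copies and neighbours limit what some counts can be assigned to. GENCODE 29 holds 20 processed pseudogenes named after 7 of the 10 genes, and 6 of them had any count. *GPX1P1* (chromosome X, 13378735 to 13379340, minus strand) is 97.2% identical to *GPX1* over its 606 bases and had 2393 to 3723 counts, 4.201% to 4.61% of those of *GPX1* in every library. The largest count of any other copy was 19. GENCODE 29 lists *GPX1* itself as a polymorphic pseudogene. With the counts of the copies added to their parents, *GPX1* kept a log2 fold change of −0.30. *PRDX1* shares 379 exonic bases with *MMACHC* on the opposite strand, which had 1609 to 2121 counts, and *PRDX2* shares 296 with the antisense gene ENSG00000267062, at 0 to 87 counts. The strand setting of the counting is not given in the sources used here, so reads of these stretches could fall on either gene. *RPL18AP3*, a ribosomal protein pseudogene inside *TXNRD1* on the same strand, had 4215 to 5318 counts and shares no exonic base with it.

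The paper's RT-qPCR primers for *GPX1* are shown because the same copy bears on them. Its RT-qPCR of lipid metabolism genes was in patients with AML, and it describes none of *GPX1* in cells with *ATGL* knockdown.
forward: cagtcggtgtatgccttctcg
reverse: gagggacgccacattctcg
Both match *GPX1* exactly, at bases 362 to 382 and 448 to 466 of transcript ENST00000419783.2 (chr3:49358219-49358239 and chr3:49358135-49358153), and enclose 105 bases that end just before the selenocysteine codon. The forward primer also matches *GPX1P1* exactly, and the reverse primer matches it with 1 mismatch.

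The oxidant-responsive factor NRF2 is known to drive several of these genes through antioxidant response elements. The core element TGACNNNGC was searched on both strands in RefSeq promoter windows on GRCh38.p14, from 250 bases before to 50 bases after the start, and 13.4% of 35116 windows held it. *PRDX1* and *PRDX6* had no window. Of the 8 genes with a window 1 held it, *TXNRD1*. The 13.4% is a share of windows and some genes have more than 1, so it compares with 1 of 8 genes only roughly. One match lies 99 bases before the start of *TXNRD1* and is printed with the element in capitals. The same window held another match 8 bases before the start, and another window of *TXNRD1* held a match 102 bases before its own start.
*TXNRD1* (chr12:104215670-104215698, plus strand): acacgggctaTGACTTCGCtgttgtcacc

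Other genes of the same pathways were counted from lists. Of 22 thioredoxin, glutaredoxin and methionine sulfoxide repair genes, all tested, 0 had an adjusted p-value under 0.05 from edgeR, 6 had a log2 fold change above 0 and 16 below, and the median was −0.07. Unadjusted p-values were under 0.05 for 3 of them, all lower. Of all genes tested, 5.94% were lower with such a p-value and 48.1% had a log2 fold change below 0. In the shortest decile of coding genes, 38.7% were lower with such a p-value and 87.9% were lower. The lists were not split by transcript length, so which of these shares suits a list is not known. With length and GC trends removed, the median of this first list was −0.09. It was 0.08 for other peroxidases and superoxide dismutases, −0.10 for the NRF2 axis and NADPH supply, and −0.06 for hydrogen peroxide sources. The genes named from the lists were not set beside genes of like length. *MSRB1*, a selenoprotein that repairs oxidized methionine, went from 85.5 ± 8.49 to 68.95 ± 7.58 CPM (SD, n = 3 each), and *GLRX*, the cytosolic glutaredoxin, from 17.6 ± 0.148 to 14.6 ± 1.195 CPM (SD, n = 3 each). *TXN2*, the mitochondrial thioredoxin that serves *PRDX3*, was at 124 ± 10.7 and 105 ± 11.1 CPM (SD, n = 3 each). None of these 3 passed the test adjusted over all genes (adjusted p = 0.392, 0.392 and 0.414 from edgeR).

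Of 15 other peroxidases and superoxide dismutases, 8 were tested, 0 had an adjusted p-value under 0.05 from edgeR, 5 had a log2 fold change above 0 and 3 below, and the median was 0.03. None of the 5 had an unadjusted p-value under 0.05, and the genes named next, those with the smallest p-values, are the 3 below 0. *SOD1*, which makes hydrogen peroxide from superoxide in the cytosol, was the 1 gene with an unadjusted p-value under 0.05, and went from 154 ± 9.97 to 129 ± 5.47 CPM (SD, n = 3 each, log2 fold change −0.26, adjusted p = 0.392 from edgeR). *SOD2*, its mitochondrial counterpart, was at 82.9 ± 0.372 and 76.9 ± 3.48 CPM (SD, n = 3 each), and *GPX4* had a log2 fold change of −0.14. Of 22 genes of the NRF2 axis and NADPH supply, all tested, 0 had an adjusted p-value under 0.05 from edgeR. A log2 fold change below 0 was found for 16 of them, against 48.1% of all genes tested, and the median was −0.05. *IDH2* and *PGLS*, which feed the NADPH pool in mitochondria and cytosol, had log2 fold changes of −0.22 and −0.20 (unadjusted p = 0.0215 and 0.0246, adjusted p = 0.392 and 0.396 from edgeR). *TALDO1*, of the pentose phosphate pathway, was at 457 ± 38.9 and 390 ± 47.0 CPM (SD, n = 3 each), a log2 fold change of −0.23.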

How the data were processed

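RNA from 6 MV4-11 libraries was sequenced, 3 per group. Per the labels and the supplementary methods, the authors filtered paired-end reads with FASTP, and they deposited raw counts per Ensembl gene. Aligner, counter and annotation are not given in the sources used here. The submitters' processing notes name the mouse build mm10, whereas the identifiers are human, so all coordinates are from GENCODE 29 (GRCh38), which held 58254 of 61806 genes. The labels and methods describe the RNA extraction differently.

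Counts were analysed with edgeR 4.0.16 in R 4.3.3 (filterByExpr, minimum count 10, TMM, quasi-likelihood test without a block, Benjamini-Hochberg over 19149 genes). Standard errors were derived from the quasi-F statistic. DESeq2 1.42.0, the tool the methods name, and limma 3.58.1 were alternatives. Length is that of the best-ranked APPRIS principal transcript, otherwise the longest coding one. Trends were removed with natural splines (4 degrees of freedom). On simulated data of 18632 genes with 200 changed 2.5-fold or to a factor of 0.4, edgeR recovered 180 with 7 false calls. Those changes were far larger than the differences of the 10 genes, and the simulated counts held no length trend and no outlying library. The recovery therefore does not measure the power for differences as small as those of the 10.

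The genes and lists were chosen with earlier results of these data known. All 10 genes are named, then the most correlated gene of each and up to 3 genes per list by smallest p-value. Replicate pairs differed beyond sampling noise. Deviations of same-numbered libraries correlated at 0.035, 0.173 and 0.263, and those of differently numbered ones at −0.218 to 0.145. These values do not settle whether the numbers are pairs. The methods name no pairing, so the main fit had no block, and a replicate block was run as an alternative. The values of a marker gene of another cell type are not reported here.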

Additional observations from a re-analysis of the deposited data

How the results depend on the processing

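All 10 genes were lower in the libraries labelled shATGL in each of the 15 alternatives run, with log2 fold changes between −0.39 and −0.06, and none was called in any. Their median was −0.20, between −0.25 and −0.15 when any 1 library was dropped, and −0.15 with length and GC trends removed. With those trends removed, the median of the shortest decile of coding genes was −0.10. The number with an unadjusted p-value under 0.05 was 5 as reported, 10 with limma voom and 9 with the replicate block. It was 3 to 10 with one library left out (3 without shATGL 1, 10 without shATGL 3). Over all genes tested, such p-values in either direction numbered 2243 of 19149 as reported. Of the same 19149 genes they numbered 6330 with limma voom and 3317 with the replicate block. They numbered 1052 of 19821 without shATGL 1 and 5739 of 19954 without shATGL 3. The member counts thus moved with those over all genes. Under the replicate block the whole table gave 0 called genes. No member had an adjusted p-value under 0.05 from edgeR, the smallest being 0.0897 for *GPX1*, against 0.392 without the block. The block moved the member counts but no member's call.

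The number of genes called over the whole table was 1. Upper-quartile normalization gave 3 (1 higher, 2 lower). The count was 24 with DESeq2 (19 higher, 5 lower) and 349 with limma voom (312 higher, 37 lower), and 0 to 319 with one library left out (0 without shNC 3 or shATGL 1, 2 without shNC 1, 319 without shATGL 3, of which 299 higher and 20 lower). The log2 fold change of *PNPLA2* was −0.01 and ranged from −0.024 to 0.033 with one library left out, above 0 without shNC 3 (0.033) and without shATGL 2 (0.02), with adjusted p of 0.943 and 0.978 from edgeR. Against lengths of the union of annotated exons, *GPX1* and *PRDX1* kept the first places in shNC and *TXNRD1* the last, while *PRDX3* moved from rank 3 to 6. The level fell most for *PRDX2*, *PRDX3*, *PRDX4*, *TXNRD1* and *CAT*, and the mean share of *PRDX5* went up to 9.54%. The deciles of coding genes, the rank correlation with exon-union length (0.194 over all genes tested) and the count of members passing 0.05 after adjustment whatever their fold change (0 as reported, 9 with limma voom and without shATGL 3) were chosen after seeing the data. The cause of these changes was not tested. With 3 libraries a group, their spread limits the precision.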

Other observations

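Genes that produce hydrogen peroxide were also listed. Of 24 such genes 14 were tested, 4 had a log2 fold change above 0 and 10 below, with a median of −0.06. None had an adjusted p-value under 0.05 from edgeR, and 1 was higher and 1 lower at an unadjusted p-value under 0.05. Of all genes tested, 48.1% were below 0 and 11.7% had such an unadjusted p-value in either direction. *CYBB*, the catalytic subunit of the phagocyte NADPH oxidase, was low, at 3.40 ± 0.609 in shNC against 4.91 ± 0.385 CPM in the libraries labelled shATGL (SD, n = 3 each, log2 fold change 0.53, 95% confidence interval 0.14 to 0.93, adjusted p = 0.392 from edgeR), and its groups did not overlap. *NCF4*, a cytosolic subunit of the same oxidase, was at 116 ± 7.48 and 102.5 ± 4.31 CPM (SD, n = 3 each), with an adjusted p of 0.403 from edgeR (log2 fold change −0.18). *RAC2*, the small GTPase that activates it, was at a log2 fold change of −0.14, with an adjusted p of 0.453 from edgeR.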
